A study of Mus musculus with 16 samples.

Results

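*Meox1* and 9 further transcription factor genes of the somite (*Meox2*, *Tcf15*, *Foxc1*, *Foxc2*, *Pax1*, *Pax9*, *Nkx3-2*, *Uncx* and *Myf5*) were followed through chimeric mouse embryos with and without *Stat3*. All 10 were found by name among the 29453 genes of the count table. *Meox1* was chosen by its measured log2 fold change between *Stat3* null and wild-type (WT) cells of these same libraries and because it lies within 1 Mb of *Stat3*, so its null against WT values are given as a description, without a test.

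The chimeras came from mouse embryonic stem cells (ESCs) that lacked *Stat3* and expressed the fluorescent protein tdTomato, placed in CD1 blastocysts. In the null allele a run of 3′ exons is replaced by a neomycin resistance gene, on a background crossed repeatedly to CD1. Whole embryos of 3 embryonic days (E7.5, then E8.5, then E9.5) were dissociated, tdTomato+ cells (null) were sorted from tdTomato- host cells (WT), and droplet libraries that count the 3′ ends of transcripts by unique molecular identifiers (UMIs) were made from each fraction. How many ESC clones were injected is not given in the sources used here, and the genotype cannot be told apart from the origin of the cells, donor ESC or host embryo. E7.5 and E8.5 each had 2 null and 2 WT libraries of pooled embryos, and E9.5 had 4 and 4. The study classed its E7.5 embryos by size, large or small, when pooling them. A size difference between the E7.5 pools cannot be told apart from the spread between the E7.5 libraries. Nothing in the files tied a library to an embryo, and the E9.5 libraries outnumber the embryos of the study's account, so every n below counts libraries and the p-values measure the spread between libraries.

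The body axis of vertebrates is laid down as somites, blocks of mesoderm that bud from the presomitic mesoderm on both sides of the neural tube. The ventral part of a somite loosens into the sclerotome, which forms vertebrae and ribs, and the dorsal part stays epithelial as the dermomyotome, the source of skeletal muscle and dorsal dermis. *Meox1* and *Meox2* are homeobox genes that act together in somite patterning, *Tcf15* (paraxis) keeps the somite epithelial, and *Foxc1* and *Foxc2* are forkhead genes needed for somites to form. *Pax1* and *Pax9* specify the ventral sclerotome and are also genes of the pharyngeal endoderm, *Nkx3-2* acts after them on the way to cartilage, *Uncx* marks and maintains the posterior compartment of each somite, and *Myf5* starts the muscle programme.

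Between 360 and 4327 cells per library entered the comparisons, 37841 in all, with 20682659 to 138613245 UMIs per library and medians of 18205 to 57791.5 UMIs per cell. Cell types are the authors' labels, transferred from an atlas. *Stat3* itself stood at 1.16 to 2.54 CPM (UMIs of a gene scaled to a common total, the usual counts-per-million unit) in the 8 null libraries and at 6.14 to 9.31 CPM in the 8 WT libraries, so all libraries followed their label. E9.5 WT libraries C and D shared 292 cell barcodes, 10 of them with the same cell type in both, and any other 2 libraries shared at most 8. The letters A to D only name the libraries of a group. The label Sclerotome had the highest sum of its 4 markers (*Pax1*, *Pax9*, *Nkx3-2*, *Sox9*) at E9.5, with 451.5 CPM, but came second at E8.5, with 195.8 CPM against 204.1 CPM in Migratory neural crest. The sum in Migratory neural crest was nearly all *Sox9*, with *Pax1* at 0.191, *Pax9* at 0.723 and *Nkx3-2* at 0 CPM. In Sclerotome these 3 were at 46.0, 14.2 and 0.93 CPM, so *Sox9* made up most of that sum too. Markers of Dermomyotome were highest in cells of that label at E8.5 (737.5 CPM) and in Posterior somitic tissues at E9.5 (868.4 CPM against 854.9 CPM in Dermomyotome). That list holds *Meox1* itself, which made up 501.0 CPM of the E8.5 sum. At E9.5 *Meox1* was at 476.8 CPM in Posterior somitic tissues and 440.8 CPM in Dermomyotome. That gap is wider than the gap of the sums, so without *Meox1* the E9.5 order is reversed. E9.5 cells labelled Somitic mesoderm had more of the Presomitic mesoderm markers (536.3 CPM) than the cells labelled Presomitic mesoderm (376.5 CPM), so that label is used here as a name only.

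*Meox1* is on chromosome 11 (chr11:101877510-101894354, minus strand, mm10), 938 kb from *Stat3* (chr11:100886806-100939594), and *Meox2* is on chromosome 12 (chr12:37108540-37179534, plus strand).

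Where the genes were read in WT embryos comes first. At E8.5, *Meox1* was highest in Posterior somitic tissues (517.0 ± 94 CPM, SD, n = 2) and Dermomyotome (501.0 ± 56 CPM), whose libraries overlapped. Sclerotome followed with 211.0 ± 22 CPM, apart from the types above and below it, and then Cardiopharyngeal progenitors SHF (83.9 ± 32 CPM), Cranial mesoderm (62.5 ± 1.7 CPM) and Anterior somitic tissues (51.0 ± 29 CPM), which overlapped in turn. The order at the top held at E9.5, with 476.8 ± 36 CPM in Posterior somitic tissues (n = 4), 440.8 ± 58 CPM in Dermomyotome and 319.1 ± 57 CPM in Sclerotome, each overlapping the next, and then a step to Pharyngeal mesoderm (91.2 ± 43 CPM). At E7.5, when no WT library held more than 15 cells of a somite label, *Meox1* was read in Intermediate mesoderm (118 ± 51 CPM, n = 2) and Paraxial mesoderm (32.7 ± 19 CPM). Cell types were assigned from the expression of these same cells, so these orders carry no test.

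Seen cell by cell, with every cell thinned to 10000 UMIs, 91.1% ± 5.9 of E8.5 WT Dermomyotome cells and 62.5% ± 1.4 of Sclerotome cells (SD, n = 2) held a *Meox1* UMI. Without thinning the Sclerotome share was 69.9%. Erythroid cells, which should lack *Meox1*, gave 1.74% ± 0.86 at E8.5 and 2.79% ± 2.2 at E9.5, with library medians of 25350 to 42660 and 20780 to 31060 UMIs per cell against 16030 to 25720 and 25870 to 43260 in Sclerotome. Shares of that size are read here as background, and those of the somite types lay above them. Free RNA was not measured. The *Meox1* level in E9.5 WT Erythroid cells was uneven, with 22.2 CPM in library C and 1.82 to 4.78 CPM in the other 3.

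**Figure D1:**
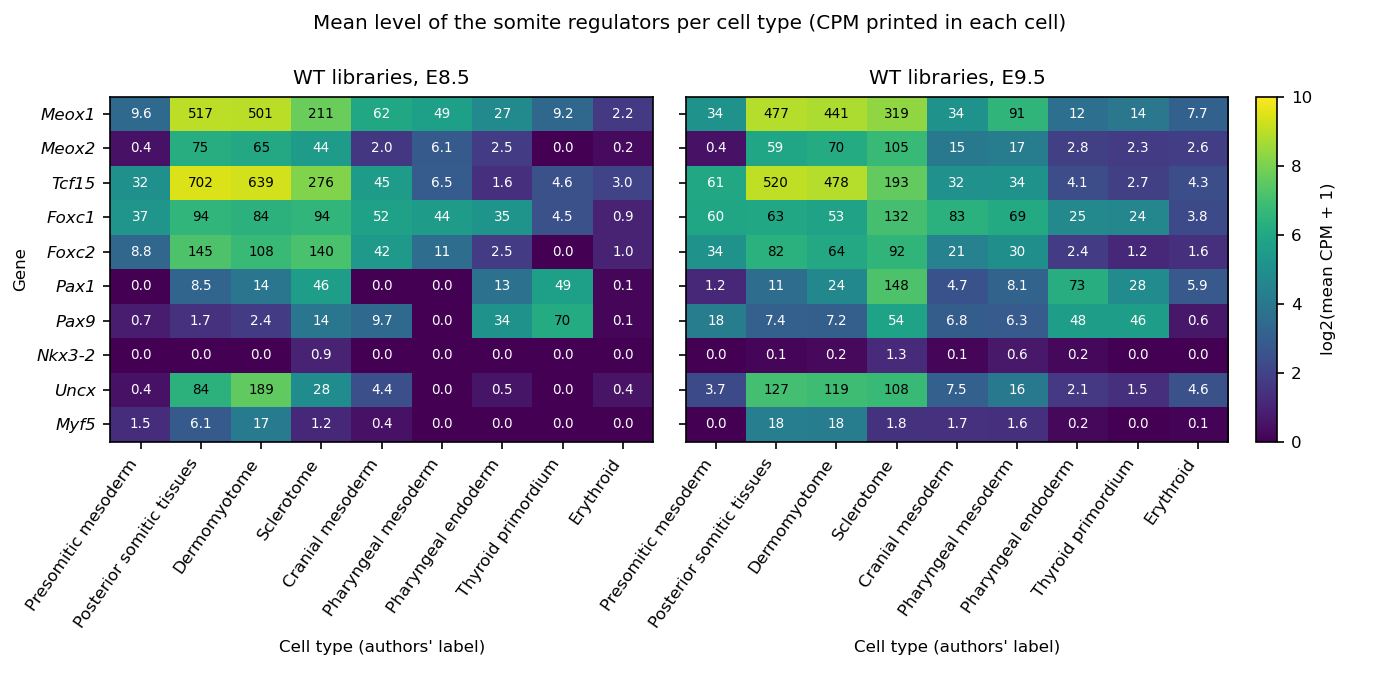
Mean level of the 10 genes (rows) in WT cells of 9 cell types (columns) at E8.5 and E9.5, coloured by log2(mean CPM + 1) with the CPM printed in each cell. *Meox1*, *Meox2* and *Tcf15* share the somite types, *Pax1* and *Pax9* also fill Pharyngeal endoderm and Thyroid primordium, and *Nkx3-2* reaches at most 1.28 CPM in these types.

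The other homeobox partner, *Meox2*, was read in fewer types than *Meox1*. Its E8.5 WT levels were 74.9 ± 15 CPM in Posterior somitic tissues, 65.0 ± 3.9 CPM in Dermomyotome and 44.1 ± 16 CPM in Sclerotome (n = 2), and no other type passed 6.06 CPM. At E9.5 Sclerotome stood first, at 105.5 ± 22 CPM (n = 4), its libraries all above those of Dermomyotome (69.7 ± 8.2 CPM). *Tcf15*, the gene of the epithelial somite, reached 701.8 ± 46 CPM in E8.5 and 520.1 ± 29 CPM in E9.5 Posterior somitic tissues, with Dermomyotome next at both stages (638.7 ± 196 and 478.0 ± 21 CPM) and Sclerotome below (276.0 ± 42 and 193.2 ± 28 CPM). It was also the somite gene of E7.5, with 206.1 ± 24 CPM in Paraxial mesoderm (n = 2).

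The forkhead genes were spread more widely. *Foxc1* was even over the E8.5 somite types, from 80.7 ± 5.1 CPM in Anterior somitic tissues to 94.3 ± 1.2 CPM in Posterior somitic tissues (n = 2), and highest in Sclerotome at E9.5 (132 ± 10 CPM, n = 4), above all libraries of Cranial mesoderm (83.2 ± 17 CPM). *Foxc2* was highest in E8.5 Posterior somitic tissues (144.8 ± 4.9 CPM) and Sclerotome (140.4 ± 18 CPM), which overlapped, and at E9.5 was at 91.7 ± 6.4 CPM in Sclerotome and 82.1 ± 27 CPM in Posterior somitic tissues, which overlapped too. Both forkhead genes were present at E7.5, *Foxc1* with 54.6 ± 13 CPM in Intermediate mesoderm and *Foxc2* with 87.4 ± 1.7 CPM in Paraxial mesoderm.

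*Pax1* and *Pax9* were shared between the axial skeleton's precursors and the pharynx. At E8.5 both were highest in Thyroid primordium, *Pax1* at 49.2 ± 22 CPM and *Pax9* at 70.0 ± 39 CPM (n = 2). *Pax1* in Sclerotome (46.0 ± 11 CPM) overlapped that level, whereas *Pax9* in Sclerotome was at 14.2 ± 5.1 CPM, below Pharyngeal endoderm (34.5 ± 4.1 CPM). At E9.5 *Pax1* was highest in Sclerotome (147.8 ± 22 CPM, n = 4), above Pharyngeal endoderm (73.3 ± 26 CPM, n = 3), and *Pax9* was level over Sclerotome (54.4 ± 7.6 CPM), Pharyngeal endoderm (47.9 ± 13 CPM) and Thyroid primordium (45.8 ± 7.9 CPM), whose libraries overlapped.

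The genes of the later steps were low or local. *Nkx3-2* averaged at most 1.39 CPM in any WT type, in E9.5 Embryo proper mesothelium, and 34 UMIs in the 790 WT Sclerotome cells of E9.5 gave 0.625 to 1.86 CPM per library. *Uncx* was highest in E8.5 Dermomyotome (189 ± 66 CPM) and lay at 108 ± 27 to 127 ± 27 CPM in the 3 main somite types at E9.5, with Dorsal midbrain neurons next (50.03 ± 12 CPM). *Myf5* was confined, among types above 5 CPM, to Posterior somitic tissues (18.4 ± 9.5 CPM at E9.5) and Dermomyotome (17.6 ± 8.8 CPM), and its E8.5 Dermomyotome libraries were far apart, at 31.3 and 2.26 CPM.

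By Pearson correlation over the 76 WT means of cell type and stage, the 8 genes with the pattern most like *Meox1* among 11519 were *Foxc2* (r = 0.784), *Meox2* (0.778), *Tcf15* (0.762), *Wnt16* (0.758), *Halr1* (0.743), *Arg1* (0.728), *Uncx* (0.722) and *Rev3l* (0.719). Of these, 4 are members of the set. The points share libraries and depth, so the values describe the order only, and ranking by Spearman correlation kept 3 of the 8.

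Against this map, *Meox1* was lower in null than in WT cells at E8.5. Over whole libraries it stood at 18.5 and 15.1 CPM in the 2 null libraries and at 26.6 and 23.9 CPM in the 2 WT libraries. A whole library mixes types, and fewer *Meox1* cells cannot be told apart there from less *Meox1* per cell, so the counts were also summed per library and type. The gene could be fitted in 13 of the 20 types with more than 15 cells in 2 libraries of each genotype. Its fitted log2 fold change (null over WT) was below 0 in 12 of the 13, against 49.7% of all gene and type pairs in those types, and its median was -0.97. These values belong to the contrast that chose the gene and are no support for it.

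In E8.5 Sclerotome, the only somite type with 2 libraries on each side, *Meox1* was at 133.9 and 132.1 CPM in null against 195.6 and 226.3 CPM in WT (log2 fold change -0.63 ± 0.12, SE). The null libraries lay below both WT libraries and almost on each other. After thinning, 46.8% ± 4.9 of null and 62.5% ± 1.4 of WT Sclerotome cells held a *Meox1* UMI (n = 2). The summed Sclerotome markers did not separate the genotypes in the same cells, at 189.0 to 224.9 CPM in null and 186.0 to 205.6 CPM in WT, with none of the 4 at 0 in either. That sum, in WT mostly *Sox9*, does not show that the cells matched apart from *Meox1*. *Pax9* averaged 27.9 CPM in null and 14.2 CPM in WT, with both null libraries above both WT libraries. *Meox2* (22.8 and 44.1 CPM) and *Foxc1* (77.0 and 93.9 CPM) had both null libraries below, while *Pax1*, *Tcf15*, *Foxc2* and *Uncx* overlapped. None of these was called.

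Outside the somites the levels were lower than in Sclerotome. Cranial mesoderm had 15.6 and 16.3 CPM of *Meox1* in null against 63.7 and 61.3 CPM in WT (-2.01 ± 0.26). The share of its cells with a UMI after thinning was 6.19% ± 0.89 in null and 28.1% ± 2.7 in WT. The null libraries lay close together and far below both WT libraries, and other lists moved with *Meox1*. The Endothelium markers summed to 8.17 to 9.71 CPM in null and 16.8 to 58.9 CPM in WT (*Cdh5* at 0 in both), the Neural tube markers to 10.2 to 10.6 and 17.6 to 40.1 CPM (none of 4 at 0), and their part in the *Meox1* difference was not tested.

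In Hindbrain floor plate, a neural type, *Meox1* was at 5.95 and 1.47 CPM in null and at 27.0 and 39.6 CPM in WT (-2.74 ± 0.46), from 15 and 50 UMIs. The whole list of 5 Somitic tissues markers, which contains *Meox1*, summed to 9.78 to 10.3 CPM in null, with *Meox2* at 0, and to 40.5 to 81.9 CPM in WT with none at 0. *Tcf15* was at 1.70 and 1.47 CPM in null and 7.36 and 28.3 CPM in WT in those cells. Somite transcripts other than *Meox1* thus differed in the same direction there, and their part in the *Meox1* value was not tested.

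Limb mesoderm (9.92 and 3.47 CPM in null, 29.4 and 19.0 CPM in WT, -1.51 ± 0.34) and Pharyngeal endoderm (15.1 and 9.36 CPM against 24.3 and 28.9 CPM, -0.97 ± 0.30) also had both null libraries below both WT libraries in *Meox1*. So did Cardiopharyngeal progenitors FHF (-0.76 ± 0.38), Ventral hindbrain progenitors (-0.70 ± 0.41), Dorsal spinal cord progenitors (-1.19 ± 0.44) and Erythroid cells. The last had 11 *Meox1* UMIs in 725 null cells and 80 in 1048 WT cells (0.447 and 0 CPM against 3.01 and 1.41 CPM, -2.68 ± 0.79), in a type that should lack the gene and whose share of *Meox1* cells is read above as background. Leaving it aside, 11 of 12 fold changes were below 0. Of the 13 fold changes, those of Sclerotome (-0.73 to -0.54), Cranial mesoderm (-2.04 to -1.91) and Optic vesicle (0.82 to 1.59) moved by less than 1.5 times when 1 library was left out. Without null library A the value was -2.79 in Limb mesoderm, -4.33 in Hindbrain floor plate, -1.46 in Pharyngeal endoderm, -1.15 in Ventral hindbrain progenitors, -0.71 in Dorsal spinal cord progenitors, 0.06 in Spinal cord progenitors, 0.50 in Surface ectoderm and -2.40 in Migratory neural crest, and the remaining null Erythroid library was at 0. Without WT library A it was -0.30 in Cardiopharyngeal progenitors FHF, -0.24 in Spinal cord progenitors and 0.13 in Migratory neural crest. Over the 13 types the null libraries lay wholly below in 9 and wholly above in 1. With 2 libraries against 2, such a separation is common, 17.7% of all gene and type pairs below and 14.6% above. These counts are no support for *Meox1*, which this contrast chose, and the 13 types share the same libraries.

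The type that went the other way was Optic vesicle, with *Meox1* at 6.94 and 5.64 CPM in null and 3.68 and 2.16 CPM in WT (1.19 ± 0.45). Its WT mean of 2.92 CPM was near that of Erythroid cells (2.21 CPM), a type that should lack the gene. Libraries overlapped in Surface ectoderm (12.8 and 36.0 CPM against 23.5 and 29.6 CPM), Spinal cord progenitors (-0.82 ± 0.58) and Migratory neural crest (26.7 and 7.62 CPM against 68.8 and 17.7 CPM, -1.09 ± 1.18). The other somite types of E8.5 had 1 null library of enough cells, so they give values only. *Meox1* was at 364.2 CPM in that null library of Dermomyotome against 461.2 and 540.8 CPM in WT, at 342.4 against 583.7 and 450.4 CPM in Posterior somitic tissues, and at 18.1 against 30.3 and 71.7 CPM in Anterior somitic tissues. Each of these 3 null values lay below both WT values, while in Presomitic mesoderm 11.5 CPM lay between 13.4 and 5.88 CPM.

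**Figure D2:**
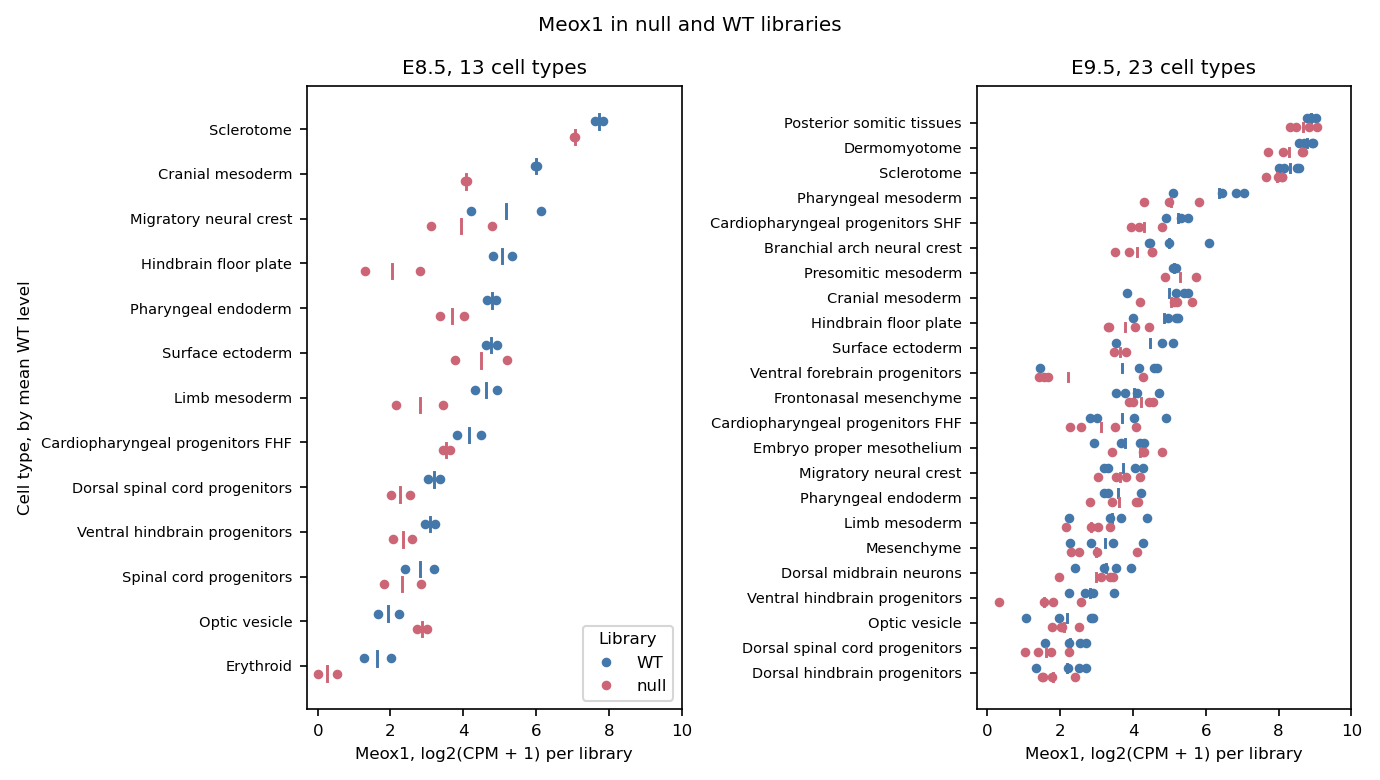
*Meox1* as log2(CPM + 1) in each null and WT library, for the 13 types fitted at E8.5 and the 23 at E9.5, with a point per library and a short line at the mean. In E8.5 Sclerotome and Cranial mesoderm the null points sit left of the WT points (133.9 and 132.1 against 195.6 and 226.3 CPM in Sclerotome), and in E9.5 Sclerotome the groups overlap.

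At E9.5 the null and WT libraries overlapped in most types. Here *Meox1* could be fitted in 23 of 37 types, and its log2 fold change was below 0 in 18 of them (50.3% of all pairs), with a median of -0.35. Leaving out null library A, B or C or WT library B moved that median to -0.65, -0.55, -0.60 or -0.62, and fitting without the filter on low counts to -0.73. Each of these medians is over the types in which *Meox1* could be fitted in that run, which can differ from the 23. Some of the types below 0 had low WT means. These were Dorsal hindbrain progenitors (3.86 CPM), Dorsal spinal cord progenitors (4.01 CPM), Optic vesicle (4.17 CPM) and Ventral hindbrain progenitors (6.47 CPM). The WT mean of Erythroid cells was 7.72 ± 9.7 CPM. All these values belong to the contrast that chose *Meox1*. Whether *Meox1* differed less than at E8.5 was not tested, and between the stages its fold change went both ways. It rose in Cranial mesoderm (-2.01 to 0.05), Hindbrain floor plate (-2.74 to -1.07), Limb mesoderm (-1.51 to -0.80) and Pharyngeal endoderm (-0.97 to 0.12). Migratory neural crest (-1.09 to -0.03), Sclerotome (-0.63 to -0.34) and Dorsal spinal cord progenitors (-1.19 to -1.12) rose too. It fell in Surface ectoderm (-0.31 to -0.97), Ventral hindbrain progenitors (-0.70 to -1.37), Cardiopharyngeal progenitors FHF (-0.76 to -0.86) and Optic vesicle (1.19 to -0.26). Sclerotome held 252.4, 202.3, 274.9 and 271.3 CPM in null and 361.4, 281.5, 374.3 and 259.3 CPM in WT (-0.34 ± 0.16), and WT library D lay among the null libraries. Dermomyotome held 208.2, 279.1, 398.2 and 407.1 CPM against 411.1, 373.5, 495.9 and 482.9 CPM (-0.45 ± 0.25), so 2 null libraries were below every WT library and 2 were not. Posterior somitic tissues differed by -0.19 ± 0.16. Without null library A these values were -0.28 in Dermomyotome and -0.06 in Posterior somitic tissues, and without null library C the latter was -0.33. Without WT library C that of Cardiopharyngeal progenitors FHF was -0.27. The thinned share of *Meox1* cells was 69.3% ± 4.8 in null and 70.3% ± 7.8 in WT Sclerotome, and 79.7% ± 7.0 and 92.2% ± 3.7 in Dermomyotome (n = 4).

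Null libraries lay wholly below WT in 1 of the 23 types, against 3.2% of all pairs, and wholly above in none (3.12%). That type was Cardiopharyngeal progenitors SHF, progenitors of the second heart field, with *Meox1* at 17.0, 27.1 and 14.5 CPM in null and 29.2, 44.3 and 38.9 CPM in WT (-1.02 ± 0.29, 3 libraries each). The Endothelium markers moved the same way in these cells, at 5.23 to 24.1 CPM in null and 31.1 to 42.8 CPM in WT, with *Cdh5* and *Emcn* at 0 in both, and their part was not tested. The lowest fold change was in Pharyngeal mesoderm (18.7, 55.2 and 30.9 CPM against 112.7, 33.4, 132.6 and 86.0 CPM, -1.43 ± 0.54), where WT library B lay among the null libraries. *Meox2* (6.28 against 17.4 CPM on average, -1.51 ± 0.70) and *Tcf15* (13.9 against 33.5 CPM, -1.28 ± 0.44) were lower there too, without a call. *Foxc1* (0.30 ± 0.30) and *Foxc2* (0.33 ± 0.26) were not lower. The part of other somite transcripts in the *Meox1* value was not tested. Cranial mesoderm, a wide gap at E8.5, was at 33.8 ± 13 CPM in null and 33.5 ± 14 CPM in WT (0.05 ± 0.42). Hindbrain floor plate stood at 15.5, 8.89, 20.8 and 9.15 CPM against 30.1, 15.1, 36.6 and 35.3 CPM (-1.07 ± 0.36), with WT library B among the null libraries. At E7.5 *Meox1* was below 0 in 1 of 3 types (49.5% of all pairs), Intermediate mesoderm (71.8 and 61.1 CPM against 153.9 and 81.3 CPM, -0.77 ± 0.30, -0.23 without WT library A), while Paraxial mesoderm overlapped (51.7 and 25.0 CPM against 46.2 and 19.2 CPM).

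**Figure D3:**
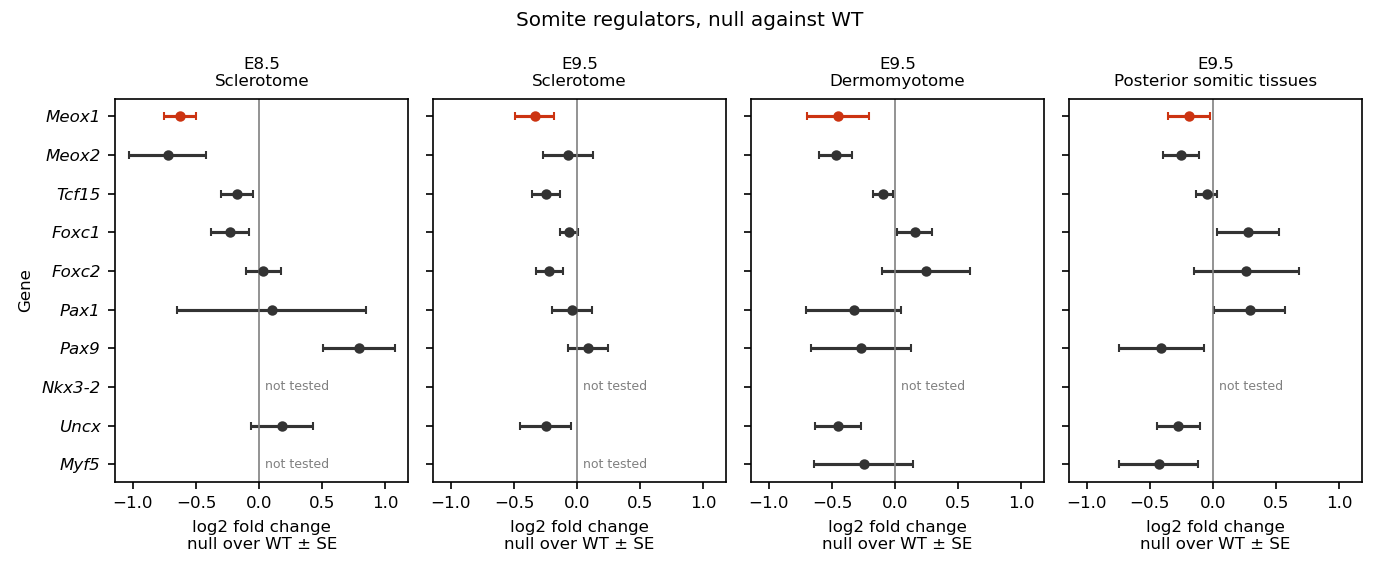
Log2 fold change (null over WT) with its SE for each of the 10 genes in E8.5 Sclerotome and in E9.5 Sclerotome, Dermomyotome and Posterior somitic tissues, *Meox1* in red, with genes that did not pass the filter marked as not tested. *Meox1* lies at -0.63, -0.34, -0.45 and -0.19 in the 4 panels, and none of the other genes was called in them.

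The other 9 genes, also chosen with earlier results of these data known, were tested with edgeR over all genes of each type, a call being an adjusted p under 0.05 with an absolute log2 fold change over 1. *Nkx3-2* was too low to be tested in any type for null against WT. The remaining 8 gave 0 calls in 11 gene and type tests at E7.5 (0.186% of all tests were calls), 1 in 32 at E8.5 (0.0609%) and 0 in 90 at E9.5 (0.12%). At an unadjusted p under 0.05 the counts were 0, 10 and 9, against 4.06%, 4.32% and 6.26% of all tests. Medians of the fold changes were 0.02, -0.13 and -0.05 at the 3 stages, and those of all tests were close to 0. A p that misses the threshold does not show equal levels, and with 2 libraries a group the E8.5 intervals were wide.

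*Meox2*, the partner of *Meox1*, was below 0 in its 1 type at E8.5 and in all 6 at E9.5, without a call. Its lowest E9.5 value was in Pharyngeal mesoderm (-1.51 ± 0.70, edgeR adjusted p = 0.83). In E8.5 Sclerotome it stood at 32.4 and 13.2 CPM in null and 55.5 and 32.6 CPM in WT (-0.73 ± 0.31, edgeR adjusted p = 0.902). The higher null library came within 1 CPM of the lower WT library, and without null library A the fitted value was -1.79. That fit has 1 null library, and any test in it takes the spread from the group that still has 2, as holds for every null against WT fit of E7.5 or E8.5 without a library. Calls in such fits are therefore given only as a sign of how far 1 library moves a value. In E9.5 Dermomyotome *Meox2* stood at 61.2, 44.5, 49.3 and 42.0 CPM in null and 73.1, 59.2, 78.6 and 67.7 CPM in WT (-0.47 ± 0.13, edgeR adjusted p = 0.211), with null library A inside the WT range. In E9.5 Sclerotome it was at 99.9 ± 21 and 105.5 ± 22 CPM (-0.07 ± 0.20).

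*Tcf15* was tested in 6, 8 and 19 types with no call and an edgeR adjusted p of 0.28 or more. With 1 library left out it was called in E7.5 Intermediate mesoderm without WT library B (-1.02), in E8.5 Cranial mesoderm without null library B (-2.33), in Optic vesicle without WT library A (2.83), and in E9.5 Pharyngeal mesoderm without WT library B (-1.48), with edgeR adjusted p from 3.71e-09 to 0.0439. In E8.5 Surface ectoderm, where it did not pass the filter with all libraries, it was called without null library A (5.93, edgeR adjusted p = 6.59e-06). Without the filter on low counts and with all libraries it was called in E8.5 Hindbrain floor plate (-3.29) and Optic vesicle (1.41) and in E9.5 Cardiopharyngeal progenitors SHF (-2.41), Pharyngeal mesoderm (-1.27) and Ventral forebrain progenitors (-2.18), with edgeR adjusted p from 0.00135 to 0.0412. In Sclerotome its libraries were at 214.8 and 272.2 CPM in null and 246.1 and 305.9 CPM in WT at E8.5 (-0.18 ± 0.13), and at 161.4 ± 17 and 193.2 ± 28 CPM at E9.5 (-0.25 ± 0.11, edgeR adjusted p = 0.419). Of the forkhead genes, *Foxc1* in E9.5 Sclerotome had 125 ± 11 CPM in null and 132 ± 10 CPM in WT (-0.06 ± 0.07), and *Foxc2* 77.7 ± 12 and 91.7 ± 6.4 CPM (-0.22 ± 0.11, edgeR adjusted p = 0.465). Over all types, 11 of 26 *Foxc1* and 4 of 15 *Foxc2* fold changes were below 0 at E9.5. The highest *Foxc1* fold change of E9.5 was in Migratory neural crest, at 13.2 ± 3.8 CPM in null and 7.20 ± 2.1 CPM in WT (0.80 ± 0.26, edgeR adjusted p = 0.507), and its lowest at E8.5 was in Mesenchyme, at 0.953 and 4.15 CPM on average (-2.04 ± 0.70, edgeR adjusted p = 1).

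*Pax1* gave the single call, in the pharynx and not the somite. In E8.5 Pharyngeal endoderm, which held 116 null and 195 WT cells, *Pax1* was at 41.0 and 35.9 CPM in null and 13.6 and 11.7 CPM in WT (1.63 ± 0.27, edgeR adjusted p = 0.000171). Both null libraries lay well above both WT libraries, but DESeq2 gave an adjusted p of 0.289. *Pax9* in the same cells was at 43.6 and 60.9 CPM in null and 37.4 and 31.6 CPM in WT (0.50 ± 0.22, edgeR adjusted p = 1). In the neighbouring Thyroid primordium, with 92 null and 40 WT cells, *Pax1* ran the opposite way, at 3.49 and 0 CPM in null (5 UMIs) and 33.6 and 64.8 CPM in WT (33 UMIs), but was not called (-4.08 ± 0.84, edgeR adjusted p = 0.209). It was called with all 4 libraries when low counts were not filtered (-4.05, edgeR adjusted p = 1.99e-07), and also without null library A (edgeR adjusted p = 0.000212) or WT library A (edgeR adjusted p = 0.0498). *Pax9* there was at 27.3 and 40.9 CPM against 42.7 and 97.3 CPM (-1.16 ± 0.39, edgeR adjusted p = 0.887), and was called without null library B (edgeR adjusted p = 0.0497) or WT library A (edgeR adjusted p = 0.0256).

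The Neural tube markers, which include genes of the early foregut such as *Sox2*, moved with *Pax1*. They summed to 135.6 to 209.1 CPM in null and 116.4 to 131.4 CPM in WT Pharyngeal endoderm and to 100.8 to 190.0 and 206.3 to 216.7 CPM in Thyroid primordium, with none of 4 at 0. The Notochord markers (*Noto* at 0) were higher in null in both types, at 10.9 to 11.7 against 7.58 to 8.12 CPM and 68.5 to 147.2 against 50.1 to 51.9 CPM. The part of either list in the *Pax1* values was not tested. At E9.5 *Pax1* no longer differed by much in Pharyngeal endoderm (58.1 ± 8.2 CPM in null, n = 4, and 73.3 ± 26 CPM in WT, n = 3) or Thyroid primordium (30.7 and 20.3 CPM in null against 16.1, 33.7 and 32.8 CPM in WT). In Sclerotome *Pax1* was at 59.3 and 11.9 CPM in null and 38.2 and 53.7 CPM in WT at E8.5, where the null libraries enclosed the WT libraries and the gene was called lower without null library A (-1.84, edgeR adjusted p = 0.00238), and at 142 ± 23 and 148 ± 22 CPM at E9.5. *Pax9* in E8.5 Sclerotome was at 24.2 and 31.7 CPM in null, above 17.7 and 10.6 CPM in WT (0.79 ± 0.28, edgeR adjusted p = 0.729).

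*Uncx* and *Myf5* were not called in any type in the main fits. Without the filter on low counts *Uncx* was called higher in E9.5 Spinal cord progenitors (3.13, edgeR adjusted p = 0.0211). *Uncx* in E9.5 Dermomyotome was at 76.9, 96.5, 87.1 and 87.0 CPM in null and 77.6, 115.6, 144.9 and 136.6 CPM in WT (-0.45 ± 0.18, edgeR adjusted p = 0.602), so that only WT library A lay among the null libraries. *Myf5* was at 18.1, 12.7, 14.1 and 8.003 CPM against 23.2, 26.0, 14.6 and 6.49 CPM in the same cells (-0.25 ± 0.39) and could be tested only there and in Posterior somitic tissues (-0.43 ± 0.31). *Nkx3-2* had 17 UMIs in 698 null and 34 in 790 WT Sclerotome cells at E9.5, or 0.824, 0.465, 0.610 and 0.643 CPM against 1.85, 0.625, 1.86 and 0.807 CPM, which overlap.

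The change from E8.5 to E9.5 was tested in WT libraries for the 9 genes other than *Meox1*. The E8.5 libraries entered the choice of *Meox1*, so its stage values are a description with no test. Stage cannot be told apart here from the day of collection. In 55 gene and type tests 7 were calls, 6 higher and 1 lower at E9.5, against 3.11% of all tests (2.06% higher and 1.04% lower). Within Sclerotome *Pax9* and *Uncx* rose. *Pax9* went from 14.2 ± 5.1 to 54.4 ± 7.6 CPM (log2 fold change 1.68 ± 0.33, edgeR adjusted p = 0.00979) and *Uncx* from 28.3 ± 2.0 to 108 ± 27 CPM (1.81 ± 0.37, edgeR adjusted p = 0.0246), each with 4 of 4 E9.5 libraries above both E8.5 libraries. *Pax1* moved as far but missed the threshold (46.0 ± 11 to 147.8 ± 22 CPM, 1.60 ± 0.40, edgeR adjusted p = 0.0556). *Meox2* was also higher without a call (1.02 ± 0.36, edgeR adjusted p = 0.151), and *Meox1* stood at 0.47 ± 0.19. Each of the calls for *Pax9* and *Uncx* was lost when E8.5 WT library A or B was left out, with adjusted p of 0.0928 and 0.0863 for *Pax9* and 0.254 and 0.125 for *Uncx*.

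*Foxc2* and *Tcf15* were lower at E9.5 in the same Sclerotome cells, by less than the fold threshold. *Foxc2* had 127.4 and 153.4 CPM at E8.5 and 83.7, 97.7, 89.5 and 95.7 CPM at E9.5 (-0.74 ± 0.15, edgeR adjusted p = 0.00654), and *Tcf15* had 246.1 and 305.9 CPM and then 223.4, 182.7, 207.5 and 159.2 CPM (-0.64 ± 0.15, edgeR adjusted p = 0.0297). In both genes every E9.5 library was below every E8.5 library. *Foxc1* shifted up by 0.35 ± 0.11 (edgeR adjusted p = 0.0526). In null Sclerotome the stage contrast had *Uncx* (1.34 ± 0.34, edgeR adjusted p = 0.0481) and *Meox2* (1.66 ± 0.38, edgeR adjusted p = 0.0348) called and *Pax9* at 0.99 ± 0.27 (edgeR adjusted p = 0.0424) and *Foxc2* at -0.997 ± 0.15 (edgeR adjusted p = 0.000333) short of a call. *Meox1* stood at 0.75 ± 0.20 there. The null contrast gave 6 calls in 55 tests against 3.06% of all tests.

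**Figure D4:**
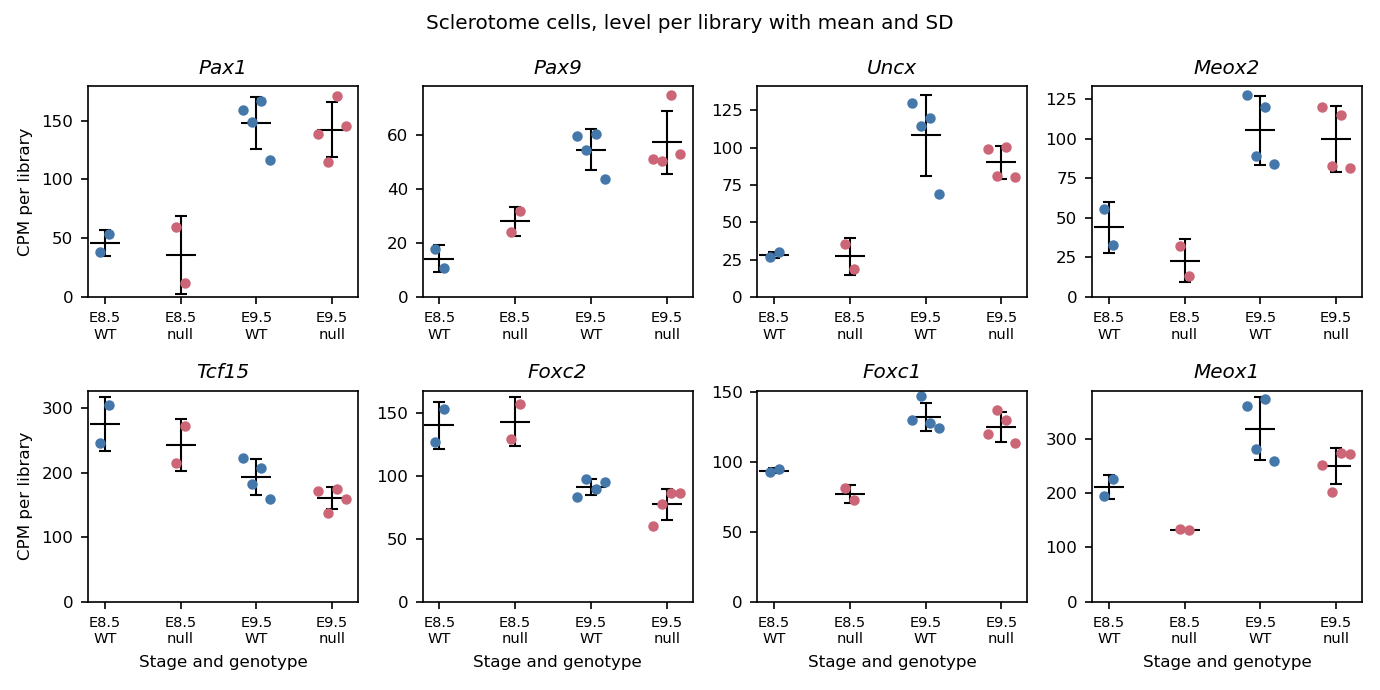
Level of 8 of the genes in Sclerotome cells, in CPM from 0, with a point per library and the mean and SD of each stage and genotype (*Nkx3-2* and *Myf5*, both low there, are left out). *Pax9* and *Uncx* rise between the stages in WT (14.2 to 54.4 and 28.3 to 108 CPM), and *Foxc2* and *Tcf15* are lower at E9.5.

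Elsewhere *Pax1* rose in WT Pharyngeal endoderm (2.37 ± 0.31, edgeR adjusted p = 0.000318), from 12.7 ± 1.4 to 73.3 ± 26 CPM, and *Foxc2* fell in Cranial mesoderm, from 41.7 ± 4.4 to 20.5 ± 4.5 CPM (-1.27 ± 0.23, edgeR adjusted p = 0.000208). *Foxc2* fell there in null cells too (-1.17 ± 0.22, edgeR adjusted p = 0.000458). *Meox1* in WT Pharyngeal endoderm was at 26.6 ± 3.3 CPM at E8.5 and 11.6 ± 5.3 CPM at E9.5 (-1.30 ± 0.31), and in Dorsal spinal cord progenitors at 8.25 and 4.01 CPM on average (-1.15 ± 0.39). Over its 14 types the WT stage values went both ways. They ran from -1.87 ± 0.61 in Migratory neural crest to 4.46 ± 1.58 in Midbrain/Hindbrain boundary (0.191 and 6.90 CPM), with Limb mesoderm at -1.19 ± 0.58 and Allantois at 2.06 ± 0.77. The remaining calls were of low levels in neural types, *Tcf15* in Spinal cord progenitors (1.48 ± 0.37, edgeR adjusted p = 0.0216) and in Ventral hindbrain progenitors (1.35 ± 0.48, edgeR adjusted p = 0.0448). *Pax1* in Ventral hindbrain progenitors was also called (edgeR adjusted p = 0.0336), but it stood at 0 in both E8.5 libraries and at 0.294 to 4.51 CPM at E9.5, so no fold is given. Of these WT calls, *Foxc2* in Cranial mesoderm and *Pax1* in Pharyngeal endoderm held in every alternative run for them, and the others did not. *Tcf15* was lost in both neural types without either E8.5 WT library, without E9.5 WT library A, and without E9.5 WT library B (Spinal cord progenitors) or D (Ventral hindbrain progenitors), with adjusted p from 0.0828 to 0.262, and with DESeq2 (0.115 and 0.122). *Tcf15* in Spinal cord progenitors was also lost when WT cells with a tdTomato UMI were kept (0.81, adjusted p = 0.234), and in Ventral hindbrain progenitors without shared barcodes (adjusted p = 0.127). *Pax1* in Ventral hindbrain progenitors was lost without E8.5 WT library A or B or E9.5 null library B (0.0501 to 0.175).

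Whether the null effect itself differed between the stages was tested for the 9 genes other than *Meox1*. In 55 tests there was 1 call (0.00808% of all tests), *Pax1* in Thyroid primordium, where the log2 fold change at E9.5 exceeded that at E8.5 by 4.02 ± 0.75 (edgeR adjusted p = 0.032). DESeq2 gave an adjusted p of 0.313 for it, and leaving out E8.5 WT library B, E8.5 null library A or B, E9.5 WT library A or B, or E9.5 null library A lost it (adjusted p from 0.0584 to 0.999). The value ran from 3.46 (without E8.5 WT library B) to 7.78 (without E8.5 null library A). At an unadjusted p under 0.05 there were 4, against 3.39% of all tests. The *Pax1* change in Pharyngeal endoderm was in the opposite sense (-1.98 ± 0.43) with an edgeR adjusted p of 0.996. For *Meox1* the corresponding difference in Sclerotome was 0.28 ± 0.28 and is given without a test.

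Among the wider somite genes, lists drawn up with earlier results of these data known, the segmentation and presomitic list (18 genes, such as *Tbx6* and *Hes7*) had 13 members tested in 73 tests at E8.5 with no call and a median log2 fold change of -0.08. The dermomyotome and myotome list (16 genes) had 9 members in 77 tests with no call and a median of -0.25, the sclerotome list (12 genes) 10 members with a median of 0.02, and the paraxial identity and retinoid list (10 genes) 9 members with a median of -0.08. All lists had 0 calls in edgeR at E7.5 and at E8.5. At an unadjusted p under 0.05, the segmentation, sclerotome, dermomyotome and paraxial lists had 8 of 66, 2 of 27, 5 of 23 and 7 of 48 tests at E7.5, against 4.06% of all tests. At E8.5 they had 8 of 73, 12 of 115, 10 of 77 and 20 of 116, against 4.32%, and at E9.5 10 of 162, 31 of 246, 24 of 160 and 35 of 226, against 6.26%. Tests of a gene in several types share libraries. At E9.5 each list had 1 call, lower in null, in 162 tests of the segmentation list, 246 of the sclerotome list, 160 of the dermomyotome list and 226 of the paraxial list, against 0.12% of all tests. *Fgf8*, the growth factor that keeps presomitic cells immature, was at 9.63, 9.64, 10.5 and 8.82 CPM in null and 27.9, 16.8, 25.5 and 11.9 CPM in WT Posterior somitic tissues (-1.13 ± 0.25, edgeR adjusted p = 0.0346), the 4 null libraries all below the WT libraries.

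The other 3 calls were outside the somite types. *Efnb2*, a ligand of Eph receptors that sets tissue boundaries, was at 16.6, 18.4 and 18.8 CPM in null and 56.3, 42.3, 43.7 and 36.4 CPM in WT Pharyngeal mesoderm (-1.31 ± 0.26, edgeR adjusted p = 0.0081), the type with the lowest *Meox1* fold change of E9.5. *Scx*, a tendon factor, was lower in Epicardium (5.79 ± 3.6 against 21.3 ± 6.6 CPM, -1.93 ± 0.40, edgeR adjusted p = 0.0435), and *En1*, a homeobox gene of the dermomyotome and of limb ectoderm, in Amniotic ectoderm (5.94 and 3.93 against 23.9 and 36.6 CPM, -2.57 ± 0.45, edgeR adjusted p = 0.0105). The calls of *Fgf8*, *Scx* and *En1* were lost when cells with a barcode found in more than 1 library were left out (adjusted p of 0.157, 0.22 and 0.0666), an alternative chosen after seeing the data. None of the 4 calls held with DESeq2, where *Efnb2* had an adjusted p of 0.0854, *Fgf8* 0.226, *En1* 0.497 and *Scx* none. Single libraries also decided them in edgeR: *Efnb2* was lost without WT library A or null library A or B (adjusted p from 0.0517 to 0.0921), *En1* without WT library D or null library A or B (0.258 to 0.345), *Fgf8* without WT library A or C or any null library (0.0833 to 0.361), and *Scx* without WT library A, B or C or null library A, C or D (0.052 to 0.298). The calls of *Fgf8* and *Scx* were also lost when WT cells with a tdTomato UMI were kept (edgeR adjusted p of 0.0628 and 0.0505).

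*Meox1* was set beside the other genes around *Stat3*. Within 1 Mb lie 80 annotated genes of the table besides *Meox1*, of which 42, 47 and 48 could be tested at the 3 stages in turn. Their median log2 fold changes were 0.02, 0.02 and -0.02, and 2, 1 and 2 of their 236, 591 and 1125 tests were calls (0.847%, 0.169% and 0.178%), against 0.186%, 0.0609% and 0.12% of all tests. At E8.5 only *Stat5a* (-2.23, in 1 type) and *Krt15* (-1.62 over 4 types) had a lower median than *Meox1* (-0.97 over 13 types). *Meox1* was chosen by this contrast and by its place near *Stat3*, so its rank among these genes is a description only. In the Sclerotome cells in which *Meox1* was low, *Rdm1*, which lies 688 kb from *Stat3* on the same side as *Meox1*, was higher in null (26.5 against 9.32 CPM on average, 1.49 ± 0.30, edgeR adjusted p = 0.0131), and it was below 0 in only 2 of 20 types at E8.5 and 4 of 36 at E9.5. The remaining calls, named after their values were seen, were *Stat5a* (-4.17 ± 0.49) and *Stat5b* (-1.58 ± 0.24) lower in E7.5 Blood progenitors (edgeR adjusted p of 8.08e-05 and 0.00136), and *Krt19* (1.55 ± 0.36) in Placodal ectoderm and *Rnd2* (1.41 ± 0.27) in YS mesothelium higher at E9.5 (edgeR adjusted p of 0.0208 and 0.0148). None of these neighbour calls, that of *Rdm1* included, was rerun with DESeq2, other filters or a library left out.

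**Figure D5:**
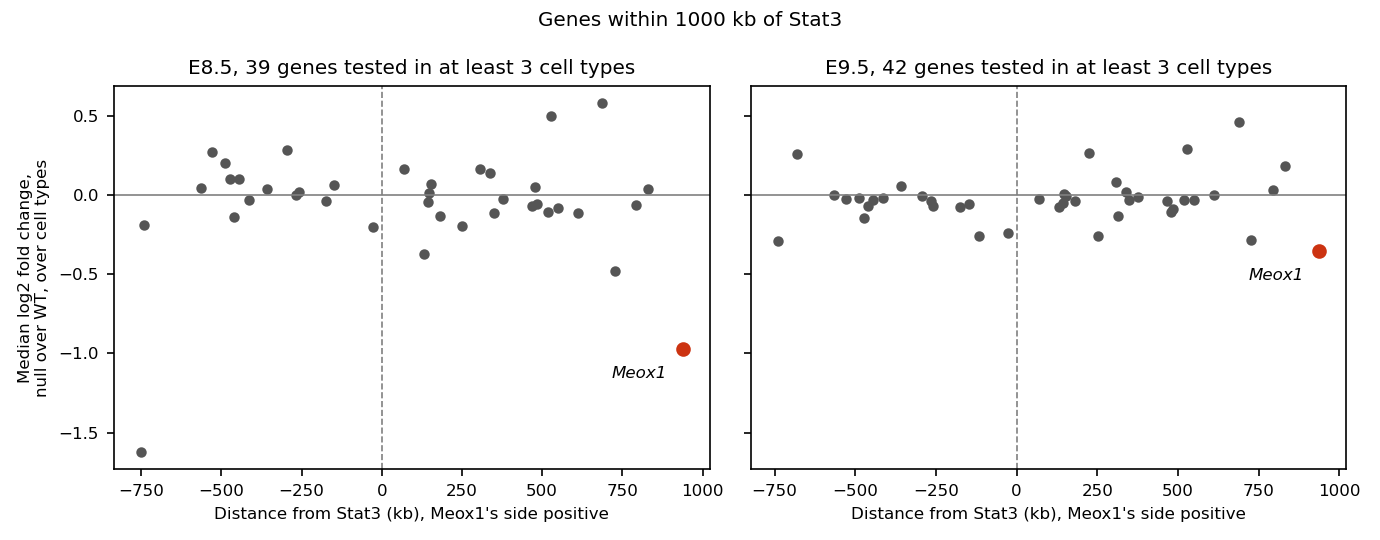
Median log2 fold change (null over WT) of each gene within 1 Mb of *Stat3* that could be tested in at least 3 types, against its distance from *Stat3* in kb (positive on the side of *Meox1*), at E8.5 and E9.5. *Meox1*, at 938 kb, lies at -0.97 and -0.35, and most neighbours lie near 0 (list medians 0.02 and -0.02). *Meox1* was chosen by this contrast, so the gap between it and the neighbours is no support for it.

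Promoters bear on the set only as background. RefSeq sequence of the 250 bases before a start site was at hand for 7 of the 10 genes, with *Meox1*, *Tcf15* and *Foxc2* left out. The windows of *Pax1*, *Pax9* and *Myf5* lay inside the RefSeq gene body, and that of *Uncx* overlapped its first bases. For these genes the bases searched are not those before the outermost start. None of the 7 held the letters TTCNNNGAA, the core of sites that STAT proteins bind, which reads the same on both strands and occurred in 7.02% of 32851 such promoters.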

How the data were processed

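Per the labels, whole chimeric embryos were dissociated, sorted by tdTomato and sequenced as 10x 3′ v3 libraries. The authors' processing notes name Cell Ranger and the build mm10. They deposited raw UMI counts per gene and cell after their quality filter, with a cell table of doublet calls, atlas labels and the percent of mitochondrial UMIs, which the authors computed per barcode and cut at a maximum before deposit. The 3395 doublet calls and 596 WT cells with a tdTomato UMI were left out of 41832 cells, and the per-cell totals ran from 10003 to 99964 UMIs. Library names matched no sample title, so the stage and sort gate of each library came from the cell table and no embryo could be traced.

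Counts were summed per library and cell type (more than 15 cells, at least 2 libraries a genotype) and fitted with edgeR 4.0.16 (quasi-likelihood, TMM, filterByExpr), adjusting p-values (Benjamini-Hochberg) over all genes of a type. Predicted, mitochondrial, ribosomal, haemoglobin and sex-linked marker genes and tdTomato (8178) were left out of tests. A call needed an adjusted p under 0.05 and an absolute log2 fold change over 1. CPM values are the counts over the total of the library and type. The SE of a fold change was its absolute log2 value over the square root of the quasi-likelihood F. For *Meox1* that SE is given as a description only. The fits were tested on simulated counts. DESeq2 1.42.0, RLE factors, no filter, more than 50 cells, other cell filters and leaving out each library were alternatives, run for the 10 genes and the somite lists but not for the neighbours of *Stat3*. Where that left 1 library in a group, it was assumed to vary like those of the other. All 10 genes were named, with list genes called, the 8 genes most like *Meox1*, and neighbours of *Stat3* called where *Meox1* is described. The genes and lists were chosen with earlier results of these data known. Shares of cells carry counting error in addition to the spread given.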

Additional observations from a re-analysis of the deposited data

Results flagged for a closer look

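Of 84 groups of 4 libraries examined at E9.5, 3 held a library far from the other 3 by Dixon's criterion, and chance alone marks about 1 group in 20. *Meox1* was examined in the types in which it was fitted. The other genes were examined only in Sclerotome, Dermomyotome and Posterior somitic tissues, where tested, so *Nkx3-2* was not examined. *Meox1* in E9.5 Ventral forebrain progenitors was at 18.4 CPM in null library B and at 1.66 to 2.18 CPM in the other 3. *Foxc1* in E9.5 Dermomyotome was at 43.3 CPM in WT library B and at 55.96 to 57.4 CPM in the others. *Pax9* in E9.5 Sclerotome was at 74.7 CPM in null library C and at 50.1 to 52.9 CPM in the others.

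The log2 fold change of *Pax1* in Thyroid primordium (null over WT) at E9.5 exceeded that at E8.5 by 4.02 (edgeR interaction, adjusted p = 0.032), with 5 null and 33 WT UMIs behind the E8.5 value. The call was lost in 7 of 18 alternatives, among them DESeq2 (adjusted p = 0.313), and the value ran from 3.46 to 7.78 with 1 library left out, the highest without E8.5 null library A.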

How the results depend on the processing

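No paired analysis was possible because the library columns matched no sample title and so carried no embryo pool. The sign of *Meox1* held in 1 to 3 of 3 types at E7.5, in 11 to 13 of 13 at E8.5 and, leaving out 1 library, in at least 20 types at E9.5. In E8.5 Migratory neural crest it ran from -2.40 to 0.13 with a library left out. Calls among the other 9 genes numbered 0 at E7.5 (0 to 1 with a library left out), 1 at E8.5 (0 with DESeq2 or over 50 cells, 4 without the filter, 1 to 5 with a library left out) and 0 at E9.5 (4 without the filter, 0 to 1). List calls numbered 0 at E7.5 (2 without the filter, 1 to 10 with a library left out), 0 at E8.5 (1 with DESeq2 or by adjusted p alone, 10 without the filter, 2 to 9) and 4 at E9.5 (16 without the filter, 0 over 50 cells, 1 without shared barcodes, 2 to 9). WT stage calls of the 9 genes numbered 7 (14 without the filter, 0 over 50 cells, 11 by adjusted p alone, 2 to 9), and stage by genotype calls 1 (2 without the filter, 0 over 50 cells, 0 to 1). The median *Meox1* log2 fold change was 0.02 at E7.5 (-0.77 with DESeq2, 0.61 without the filter, -0.92 to 1.15 with a library left out), -0.97 at E8.5 (-1.31 to -1.002) and -0.35 at E9.5 (-0.73 without the filter, -0.65 to -0.38). Without thinning, 69.9% and 78.0% of WT Sclerotome cells held *Meox1* at E8.5 and E9.5. Ranking by Spearman correlation kept 3 of the 8 genes most like *Meox1*. Requiring over 50 cells left no type at E7.5, so it was not run there. The causes were not tested, other than that the stricter cell minimum tests fewer types. Each *Meox1* median is over the types in which the gene could be fitted in that run, so medians of different runs can cover unlike sets of types. The number of libraries, 2 a group at E7.5 and E8.5, limits the precision there.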
